A study of Mus musculus with 12 samples.

Results

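The hippocampus and the prefrontal cortex of mice with irradiated abdomens were compared, within each mouse, for every gene expressed in these tissues. The comparison used 6 of the study's 12 RNA-seq libraries: hippocampus and prefrontal cortex of irradiated mice 1, 2 and 3, chosen by the tissue, treatment and mouse number in their titles. The other 6 libraries come from the same regions of 3 control mice that were not irradiated, and they were used to ask which region differences were also present without irradiation. All mice were male C57BL/6, an inbred laboratory strain without a further genotype in the labels, kept pathogen-free on a standard diet. The irradiated mice had received X-rays to the abdomen as a model of chronic injury of the gut, with 13 Gy in the names of their libraries. Brains were taken in the chronic phase, but the sources used here give neither the time after irradiation nor the age of the mice. Each library holds RNA of 1 region of 1 mouse, so the 3 libraries of a group are separate animals.

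The hippocampus is an older part of the cortex that holds the dentate gyrus and the fields CA1, CA2 and CA3, and it is known for its part in forming memories. The prefrontal cortex is layered cortex at the front of the brain, known for its part in planning and working memory. Each is a mixture of neurons, glia and vessels, and each dissection can carry neighbouring tissue: choroid plexus and ependyma line the ventricle beside the hippocampus, the striatum lies behind and below the frontal cortex, and the meninges cover both. In such bulk RNA, fewer cells of a type and less RNA per cell cannot be told apart.

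Expression was read as FPKM (fragments per kilobase of transcript, scaled to all fragments of a library), and differences are hippocampus minus prefrontal cortex on the log2(FPKM + 1) scale with their standard error. That scale understates the difference of genes near or below 1 FPKM. Estimated depth ran from 17.8 M to 18.7 M (mega) fragments over the 6 libraries. The region labels held in every irradiated mouse for the following markers. Prox1 and C1ql2 of dentate granule cells and Fibcd1 of CA1 were higher in every hippocampus library than in any prefrontal cortex library. Tbr1 and Lamp5 of the layered cortex were lower. These are among the members of smallest p in their lists. Other members of the same lists did not differ or went the other way, as given below. The hippocampus library of irradiated mouse 2 stood apart in the choroid plexus, whose epithelium secretes the cerebrospinal fluid. Its 23 choroid plexus genes summed to 158 FPKM, against 3883 FPKM in mouse 1 and 5559 FPKM in mouse 3. The choroid plexus list and the genes named from it are also given without that mouse.

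Of 12878 genes that averaged 1 FPKM or more, 4629 (35.9%) differed between hippocampus and prefrontal cortex of irradiated mice at an adjusted p under 0.05 (limma, Benjamini-Hochberg adjustment, two-sided, mouse as a block). Hippocampus was higher for 2264 genes (17.6%) and lower for 2365 genes (18.4%). The 6 libraries separated completely by region for 5767 genes (44.8%). A difference of at least 1 on the log2 scale was reached by 493 of the called genes (3.83%), 259 of them higher in hippocampus (2.01%) and 234 lower (1.82%). Without mouse 2, 4600 genes were called, among them 3980 of the 4629 in the same direction (86.0%) and 0 in the opposite direction. Without mouse 1 there were 3260 calls, and without mouse 3 there were 3096, of which 1495 were higher in hippocampus.

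Most region differences of irradiated mice were also called in control mice, where 4326 of 12923 genes tested were called (33.5%), 2238 higher (17.3%) and 2088 lower (16.2%) in hippocampus. There were 2889 calls without control mouse 1, 1483 of them higher in hippocampus. Both comparisons tested 12740 genes, and 3336 of these were called in the same direction in both, 1650 higher and 1686 lower in hippocampus. They made up 72.1% of the genes called in irradiated mice and 77.1% of those called in control mice. Only 3 genes were called in opposite directions, Crabp2, Fmod and Vtn, each higher in the hippocampus of irradiated mice and lower in that of control mice. Of the 493 large differences, 488 were tested in control mice, and 479 (97.2%) were called there in the same direction. Opposite signs were seen for 4 of them, Aldh1a2, Ptgds, Slc6a13 and Spp1. The genes called in control mice had a median absolute difference of 0.40 on the log2 scale in irradiated mice and 0.44 in control mice. Choosing genes by their control call raises the control value, so these medians do not show smaller differences after irradiation.

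The genes with the largest differences came from a few cell types and tissues. Among the 12 highest in hippocampus, of those averaging 10 FPKM or more, were C1ql2, a secreted synaptic protein of dentate granule cells, Fibcd1 and Spink8 of CA1 pyramidal cells, the AMPA receptor partner Shisa6, the calcium-binding protein Cabp7 and the copine Cpne7. Ttr, Kl, Folr1 and Kcnj13 of the choroid plexus, the mitochondrial subunit Cox8b and the matrix proteoglycan Dcn completed them. C1ql2 (mm10 chromosome 1, 120340582 to 120343174) stood at 29.5, 36.0 and 32.0 FPKM in hippocampus of mice 1, 2 and 3, against 0.361, 0.347 and 0.806 FPKM in prefrontal cortex (difference 4.49 ± 0.11 on the log2 scale, adjusted p = 6.05e-06). Shisa6 stood at 23.0, 24.8 and 25.1 FPKM in hippocampus, against 2.13, 2.33 and 2.13 FPKM in prefrontal cortex (2.99 ± 0.06, adjusted p = 5.37e-06). In both genes every hippocampus library lay far above every prefrontal cortex library, and the 3 mice were close to each other.

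Among the 12 lowest in hippocampus were Adora2a, Penk, Scn4b, Drd1, Rgs9, Drd2, Tac1, Dkkl1, Myl4, Ppp1r1b and Syndig1l. Apart from the secreted protein Dkkl1 and the myosin light chain Myl4, they are known from projection neurons of the striatum. Adora2a, an adenosine receptor (chromosome 10, 75316877 to 75334784), stood at 0.633, 0.940 and 0.763 FPKM in hippocampus, against 30.2, 29.6 and 27.2 FPKM in prefrontal cortex (-4.08 ± 0.08, adjusted p = 4.96e-06). Dkkl1 stood at 2.53, 1.81 and 1.74 FPKM in hippocampus, against 20.9, 20.8 and 21.5 FPKM in prefrontal cortex (-2.88 ± 0.09, adjusted p = 1.09e-05). All 24 leading genes were called in the same direction in control mice.

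**Figure D1:**
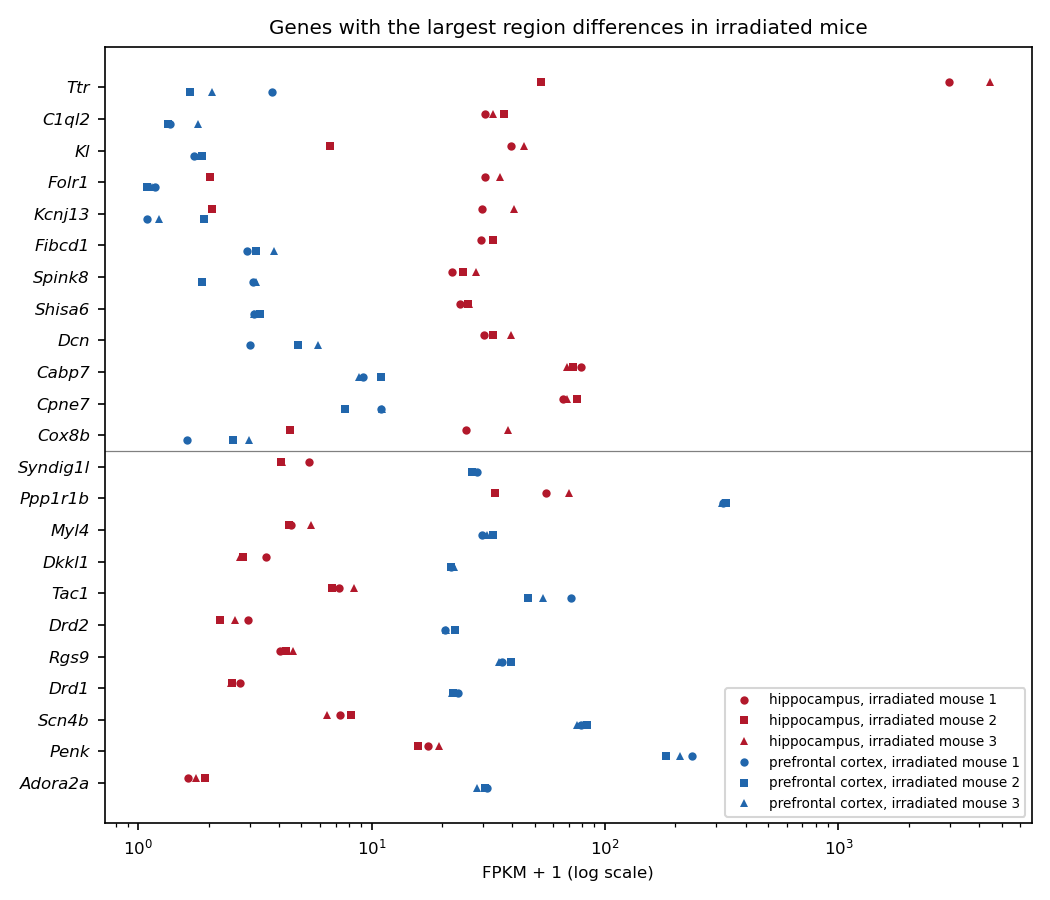
FPKM + 1 on a log axis of the 12 genes highest and 11 of the 12 lowest in hippocampus of irradiated mice, with 1 point per library, hippocampus in red above prefrontal cortex in blue, and mice 1, 2 and 3 as circle, square and triangle. The square of mouse 2 lies apart in hippocampus for Ttr (52.1 FPKM, against 2974 and 4453 FPKM in the other mice), Kl, Folr1, Kcnj13 and Cox8b.

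Genes of the hippocampal fields were mostly higher in hippocampus of irradiated mice, and by much the same amounts as in control mice. Of 13 genes of dentate granule cells, 9 were higher and 1 lower (69.2% and 7.69%, against 17.6% and 18.4% of all genes tested). Their median log2 difference was 0.97, against a median of 0.00 over all genes tested. In control mice the same list had 9 higher, 1 lower and a median of 0.88. Prox1, the transcription factor that keeps granule cell identity, stood at 11.3, 15.2 and 12.1 FPKM in hippocampus, against 2.32, 2.32 and 2.11 FPKM in prefrontal cortex (2.08 ± 0.09, adjusted p = 2.9e-05). Dsp, the desmosomal protein desmoplakin, stood at 4.89, 6.11 and 5.59 FPKM in hippocampus, against 0.0159, 0.0388 and 0.0548 FPKM in prefrontal cortex (2.65 ± 0.10, adjusted p = 2.14e-05). Mouse 2 had the highest hippocampal value of the 3 mice for C1ql2, Prox1 and Dsp, so its hippocampus did not lack granule cell transcripts. Lct was higher by 2.31 on the log2 scale, while Plk5 was lower by -0.72 (adjusted p = 0.000609).

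Of 8 genes of CA1 pyramidal cells, 6 were called higher and 0 lower (75% higher, against 17.6% of all genes tested). The median was 0.80 in irradiated mice and 0.99 in control mice. Fibcd1, a receptor for acetylated molecules, stood at 28.3, 32.2 and 32.1 FPKM in hippocampus, against 1.93, 2.21 and 2.80 FPKM in prefrontal cortex (3.27 ± 0.07, adjusted p = 5.46e-06). Wfs1, a protein of the endoplasmic reticulum, overlapped between regions, with 52.3, 50.3 and 40.7 FPKM in hippocampus and 38.7, 40.4 and 44.3 FPKM in prefrontal cortex (0.20 ± 0.10, adjusted p = 0.166). Of 11 genes of CA2 and CA3, 10 were higher (90.9%) and 0 lower, with medians of 0.59 in irradiated mice and 0.74 in control mice. Homer3, a scaffold of the postsynaptic density, stood at 15.4, 17.0 and 19.0 FPKM in hippocampus, against 1.76, 2.23 and 2.26 FPKM in prefrontal cortex (2.56 ± 0.07, adjusted p = 6.05e-06). Amigo2, an adhesion molecule of CA2, was higher by 1.47 ± 0.07 (adjusted p = 4.04e-05), and Rgs14, which limits plasticity in CA2, by 0.59 ± 0.06 (adjusted p = 0.000669).

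Genes of the cortical layers ran the other way, less uniformly. Of 10 genes of the upper layers, 8 were lower in hippocampus and 1 higher (80% and 10%, against 18.4% and 17.6% of all genes tested). The median was -1.0 in irradiated mice and -1.16 in control mice. Lamp5, a membrane protein of upper-layer and neurogliaform neurons, stood at 20.0, 20.3 and 17.1 FPKM in hippocampus, against 81.7, 91.4 and 76.7 FPKM in prefrontal cortex (-2.07 ± 0.05, adjusted p = 6.05e-06). The 1 exception was Scnn1a, a sodium channel subunit used as a marker of layer 4, which was higher by 0.97 ± 0.12 (adjusted p = 0.0014). Of 17 genes of the deep layers, 10 were lower and 4 higher (58.8% and 23.5%), so the share higher was near that of all genes tested. The median was -0.42, and -0.68 in control mice. Foxp2, a transcription factor of corticothalamic neurons, stood at 0.688, 0.526 and 0.625 FPKM in hippocampus, against 7.38, 6.47 and 6.22 FPKM in prefrontal cortex (-2.25 ± 0.09, adjusted p = 2.14e-05). Tbr1 was lower by -1.45 ± 0.04 (adjusted p = 9.96e-06), while Fezf2 and Bcl11b, which specify subcerebral projection neurons, stood at differences of 0.07 and 0.05 that did not pass the test (adjusted p = 0.47 and 0.728).

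The prefrontal cortex libraries held striatal transcripts in every irradiated mouse. Of 22 genes of striatal projection neurons, 21 were lower in hippocampus and 0 higher (95.5% lower, against 18.4% of all genes tested). The median was -2.62 in irradiated mice and -2.55 in control mice. The 22 genes summed to 244, 221 and 275 FPKM in hippocampus of mice 1, 2 and 3. In prefrontal cortex the same sums were 1276, 1226 and 1231 FPKM. Penk, the precursor of the enkephalins, stood at 16.4, 14.8 and 18.4 FPKM in hippocampus, against 235, 181 and 208 FPKM in prefrontal cortex (-3.57 ± 0.07, adjusted p = 4.96e-06). Drd1 and Drd2, the dopamine receptors that mark the direct and the indirect pathway neurons, were lower by -3.13 ± 0.06 and -3.05 ± 0.11 (adjusted p = 4.96e-06 and 1.72e-05). The share of these differences that lies in the frontal cortex itself, rather than in striatal tissue of the dissection, cannot be told apart here.

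**Figure D2:**
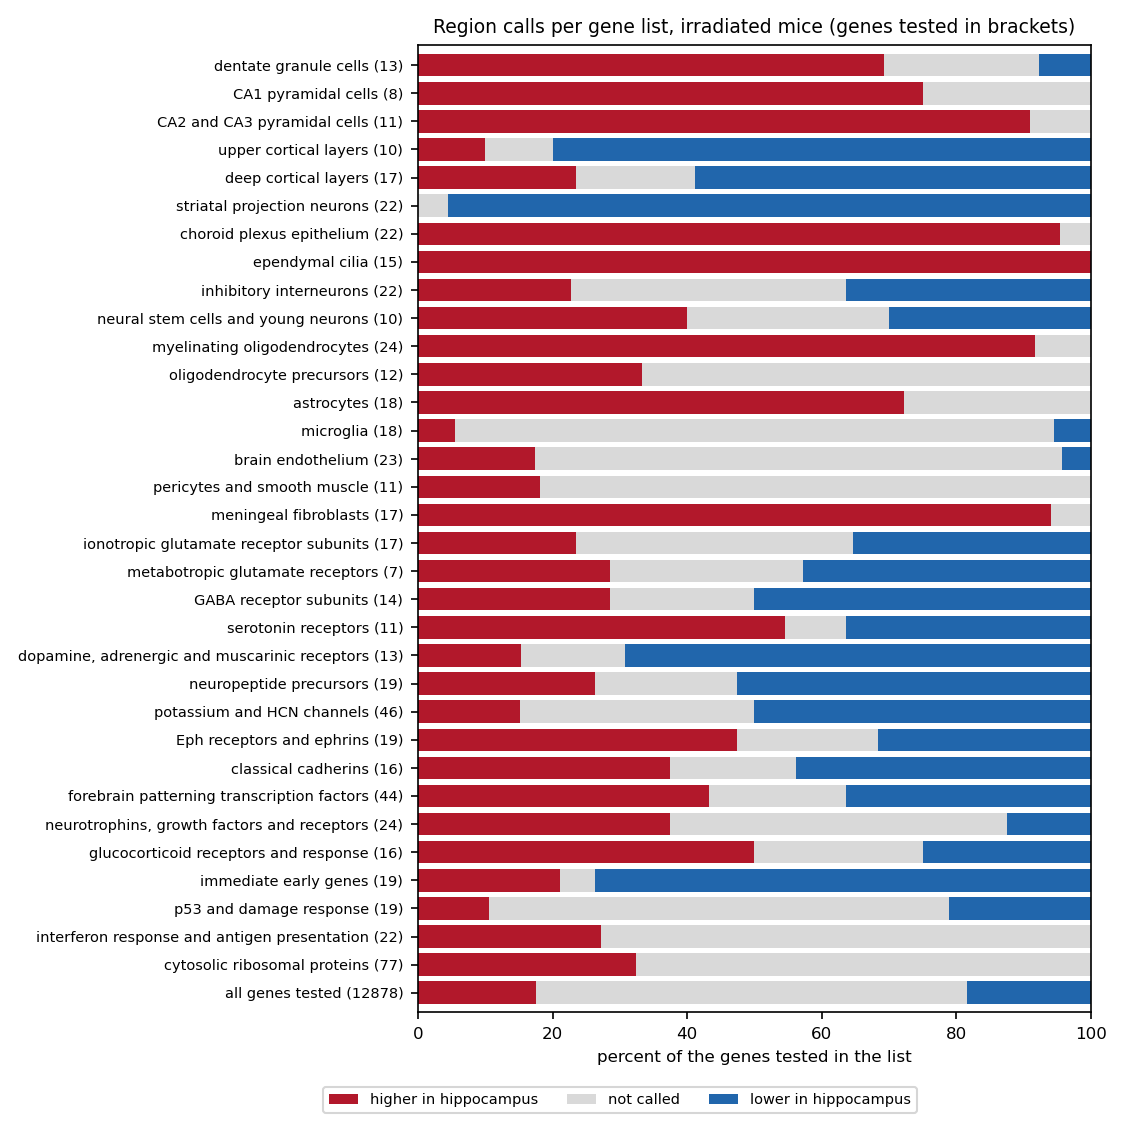
Percent of the genes tested in each list that were called higher in hippocampus (red), not called (grey) or called lower in hippocampus (blue) in irradiated mice, with all 12878 genes tested in the lowest row. Choroid plexus, ependymal cilia, myelin and meningeal fibroblast lists were nearly all higher, with 21 of 22, 15 of 15, 22 of 24 and 16 of 17 genes, and the striatal list was nearly all lower, with 21 of 22.

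Choroid plexus genes had the highest median difference of the lists, and mouse 2 stood apart from the others. Of 22 genes tested, 21 were higher in hippocampus and 0 lower (95.5% higher, against 17.6% of all genes tested). The median was 2.33, but the median by mouse was 3.20 in mouse 1, 0.47 in mouse 2 and 3.35 in mouse 3. Ttr, which carries thyroid hormone in cerebrospinal fluid (chromosome 18, 20665280 to 20674321), stood at 2974, 52.1 and 4453 FPKM in hippocampus of mice 1, 2 and 3, against 2.75, 0.663 and 1.07 FPKM in prefrontal cortex (8.57 ± 1.03, adjusted p = 0.00127). The folate receptor Folr1 stood at 29.6, 1.03 and 34.4 FPKM in hippocampus, against 0.181, 0.0874 and 0.141 FPKM in prefrontal cortex (3.52 ± 0.74, adjusted p = 0.0118). Hippocampus of mouse 2 was thus far below the other mice for both genes and still above all 3 prefrontal cortex libraries of irradiated mice. In prefrontal cortex of control mice 1, 2 and 3 Ttr stood at 2.39, 0.553 and 58.1 FPKM, the last above the 52.1 FPKM of this hippocampus. Enpp2, which makes lysophosphatidic acid, overlapped: it stood at 598, 61.1 and 712 FPKM in hippocampus, against 62.3, 65.7 and 69.5 FPKM in prefrontal cortex (2.16 ± 0.63, adjusted p = 0.0392), and it lost its call without mouse 1 and without mouse 3 (adjusted p = 0.164 and 0.137).

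Without mouse 2 all 22 choroid plexus genes were called higher, with a median of 3.28, and Ttr and Folr1 differed by 10.35 and 4.83 (adjusted p = 3.88e-08 and 2.49e-08). In the same setting Kl, Kcnj13, Cox8b and Enpp2 differed by 4.57, 4.92, 3.83 and 3.29, against 3.65, 3.32, 2.82 and 2.16 with all 3 mice. Only 8 genes were called without mouse 1 and 11 without mouse 3, when mouse 2 made up 1 of the 2 mice left, and 3 were called where the moderation of variances was robust to outlying genes, Ttr not among them (adjusted p = 0.079). Kl and Cox8b also lost their calls with robust moderation (adjusted p = 0.0869 and 0.154). Without a filter on low values 11 were called, and Folr1, Kcnj13 and Enpp2 were not (adjusted p = 0.0504, 0.0939 and 0.111). Folr1 lost its call without mouse 1 (adjusted p = 0.0586), and Kcnj13, the potassium channel of the apical membrane, lost it without mouse 1 and without mouse 3 (adjusted p = 0.131 and 0.105). In control mice all 22 genes were higher, with a median of 3.35 and medians by mouse of 3.70, 3.45 and 2.87. The 2 irradiated mice other than mouse 2 thus had medians within the range of the control mice, and the median change of the difference with irradiation was -0.93 with mouse 2 and 0.00 without it. That change reached an unadjusted p under 0.05 for 0 of the 22 genes with all mice, for 2 without irradiated mouse 1, for 2 without irradiated mouse 2 and for 9 without irradiated mouse 3.

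**Figure D3:**
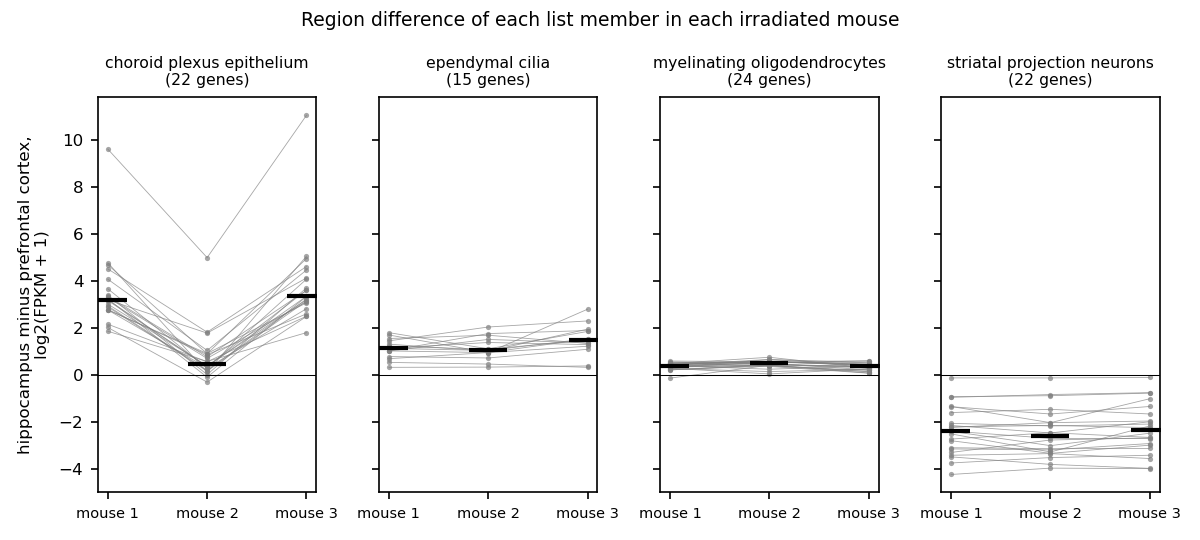
Hippocampus minus prefrontal cortex on the log2(FPKM + 1) scale for each gene of 4 lists in irradiated mice 1, 2 and 3, with 1 thin line per gene and the median as a black bar. Choroid plexus medians drop to 0.47 in mouse 2, against 3.20 and 3.35 in the other mice, while ependymal cilia (1.13, 1.04 and 1.49), myelin (0.39, 0.48 and 0.36) and striatal genes (-2.40, -2.60 and -2.37) stay close together.

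Genes of ependymal cilia, the motile cilia of the ventricle wall, were higher in hippocampus in each of the 3 mice, mouse 2 included. All 15 genes tested were called higher, against 17.6% of all genes tested, with a median of 1.27. In control mice 14 of 15 were called higher, with a median of 1.37. Foxj1, the master regulator of motile cilia, stood at 6.44, 4.81 and 9.15 FPKM in hippocampus, against 1.99, 1.88 and 1.63 FPKM in prefrontal cortex (1.42 ± 0.17, adjusted p = 0.00129). Ccdc153, a coiled-coil protein and ependymal marker, stood at 7.46, 7.21 and 10.9 FPKM in hippocampus, against 2.09, 1.00 and 1.41 FPKM in prefrontal cortex (1.93 ± 0.16, adjusted p = 0.00029). Dynlrb2, a light chain of dynein, stood at 8.08, 5.44 and 8.40 FPKM in hippocampus, against 2.09, 0.990 and 2.71 FPKM in prefrontal cortex (1.53 ± 0.09, adjusted p = 9.47e-05). For all 3 genes the regions did not overlap, and mouse 2 had the lowest hippocampal value.

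RFX transcription factors are known to bind the X-box in promoters of cilia genes, and GTTGCC is the core of that element. Of the 11 cilia genes with a promoter in the RefSeq table (GRCm38.p6, 250 bases before to 50 after the start), 5 held GTTGCC on either strand (45.5%), against 1256 of the 9797 promoters of all genes tested (12.8%). The promoters of Ccdc153 (chr9:44240427-44240726, plus strand) and Dynlrb2 (chr8:116504765-116505064, plus strand) are shown because both genes were higher in hippocampus and both hold the motif, in capitals. A match of these letters is a description of the promoter and not a measured binding site.
Ccdc153: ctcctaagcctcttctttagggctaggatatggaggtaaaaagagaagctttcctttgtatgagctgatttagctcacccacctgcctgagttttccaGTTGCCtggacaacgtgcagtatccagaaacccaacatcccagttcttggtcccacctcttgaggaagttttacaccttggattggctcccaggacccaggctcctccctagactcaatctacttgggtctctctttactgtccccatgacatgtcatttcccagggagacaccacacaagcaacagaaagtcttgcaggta
Dynlrb2: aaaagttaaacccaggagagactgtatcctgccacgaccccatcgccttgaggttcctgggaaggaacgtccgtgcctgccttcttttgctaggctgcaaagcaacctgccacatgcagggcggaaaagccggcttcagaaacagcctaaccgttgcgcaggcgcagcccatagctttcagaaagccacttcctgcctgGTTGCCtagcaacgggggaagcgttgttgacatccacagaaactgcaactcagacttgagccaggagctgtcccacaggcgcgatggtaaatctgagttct

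Myelin genes were higher in hippocampus by small and even amounts. Of 24 genes of myelinating oligodendrocytes, 22 were higher and 0 lower (91.7% higher, against 17.6% of all genes tested). The median was 0.41 in irradiated mice and 0.45 in control mice. Mobp, a protein of compact myelin, stood at 88.6, 105 and 110 FPKM in hippocampus, against 62.8, 69.5 and 72.3 FPKM in prefrontal cortex (0.56 ± 0.04, adjusted p = 0.000263). Cldn11, the claudin of myelin tight junctions, was higher by 0.49 ± 0.05 (adjusted p = 0.00046). Of 12 genes of oligodendrocyte precursors, 4 were higher and 0 lower, with a median of 0.22. That is 33.3% called, near the 35.9% of all genes tested. The lineage factor Olig1 was higher by 0.31 ± 0.07 (adjusted p = 0.015), and only 1 of the 12 was called when the pairing by mouse was ignored.

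Astrocyte genes were higher in hippocampus, with Gfap at the top. Of 18 genes, 13 were higher and 0 lower (72.2% higher, against 17.6% of all genes tested). The median was 0.42 in irradiated mice and 0.32 in control mice. Gfap, the intermediate filament of astrocytes, stood at 155, 137 and 180 FPKM in hippocampus, against 32.5, 26.7 and 46.9 FPKM in prefrontal cortex (2.15 ± 0.08, adjusted p = 1.93e-05). Agt, the angiotensin precursor, stood at 15.8, 12.9 and 19.7 FPKM in hippocampus, against 4.33, 2.45 and 5.91 FPKM in prefrontal cortex (1.75 ± 0.09, adjusted p = 6e-05). The water channel Aqp4 and the gap junction protein Gja1 were higher by 0.99 ± 0.05 and 0.79 ± 0.05 (adjusted p = 3.96e-05 and 8.36e-05).

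Few genes of microglia and vessels were called between the regions of irradiated mice. Of 18 microglial genes, 1 was higher and 1 lower (11.1% called, against 35.9% of all genes tested), with a median of 0.01: the purinergic receptor P2ry12 was higher by 0.20 ± 0.05 (adjusted p = 0.0213) and Aif1 lower by -0.23 ± 0.07 (adjusted p = 0.0354). Without mouse 1 or without mouse 3 neither was called, and Aif1 was not called without mouse 2 or when the pairing was ignored. Of 23 endothelial genes, 4 were higher and 1 lower, with a median of -0.08, whereas in control mice 11 of 22 were lower and 3 higher, with a median of -0.29. The irradiated counts were 2 higher and 0 lower without mouse 3 and 4 lower without mouse 2, and the lower count in control mice was 7 without control mouse 1. Ocln, the tight junction protein occludin, was higher in hippocampus of irradiated mice by 1.03 ± 0.12 (adjusted p = 0.00119). Its difference in control mice was much the same, 1.04 ± 0.10 (adjusted p = 8.41e-05). In irradiated hippocampus it was lowest in mouse 2, at 4.14, 3.44 and 5.27 FPKM in mice 1, 2 and 3. Of 11 genes of pericytes and smooth muscle, 2 were higher and 0 lower, with a median of -0.03, against 0 higher, 5 lower and a median of -0.26 in control mice, where 0 were lower without control mouse 1 and 3 without control mouse 2. The 2 higher genes were Vtn, the adhesive protein vitronectin, whose call was lost without mouse 1 and when the pairing by mouse was ignored, and Acta2, smooth muscle actin. Acta2 stood at 1.45, 4.8 and 2.36 FPKM in hippocampus, against 0.989, 2.64 and 1.53 FPKM in prefrontal cortex (0.46 ± 0.11, adjusted p = 0.0168), and it lost its call without mouse 2 and when the pairing was ignored. The change of the region difference with irradiation had a median of 0.22 over the endothelial list and 0.23 over the pericyte list. It reached an unadjusted p under 0.05 (limma) for 6 of 23 and 3 of 11 genes, against 5.28% of all genes tested. After adjustment 0 genes passed, so the differing counts of calls do not show a change in these lists.

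Meningeal fibroblast genes were nearly all higher in hippocampus of irradiated mice and went both ways in control mice. Of 17 genes tested, 16 were higher in hippocampus of irradiated mice and 0 lower (94.1% higher, against 17.6% of all genes tested), with a median of 0.92. In control mice 4 were higher and 2 lower, with a median of -0.22. The change of the region difference with irradiation had a median of 0.86 over the 17 genes, against -0.01 over all genes tested, and 15 of the 17 reached an unadjusted p under 0.05, as did 5.28% of all genes tested. After adjustment over all 12894 genes tested for the change, 0 of them passed. The list was chosen with earlier results of these data known, so its count describes these libraries and is not an independent test. Of the members described below, Ptgds, Aldh1a2 and Fmod were chosen after their values were seen.

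Ptgds, prostaglandin D synthase, which oligodendrocytes also make (chromosome 2, 25466709 to 25470046), stood at 1115, 871 and 1201 FPKM in hippocampus of irradiated mice, against 280, 638 and 555 FPKM in their prefrontal cortex (1.18 ± 0.25, adjusted p = 0.0129). In control mice it stood at 324, 477 and 886 FPKM in hippocampus, against 916, 776 and 799 FPKM in prefrontal cortex (-0.68 ± 0.24, adjusted p = 0.0548). The regions thus did not overlap in irradiated mice and did in control mice, where hippocampus of control mouse 3 lay above 2 of the prefrontal cortex libraries. Crabp2, which carries retinoic acid to its receptor (chromosome 3, 87948666 to 87953376), stood at 4.58, 4.0 and 3.56 FPKM in hippocampus of irradiated mice, against 1.00, 2.60 and 1.57 FPKM in their prefrontal cortex (0.92 ± 0.18, adjusted p = 0.00955). In control mice it stood at 1.18, 1.46 and 1.67 FPKM in hippocampus, against 2.74, 2.93 and 3.29 FPKM in prefrontal cortex (-0.71 ± 0.10, adjusted p = 0.000647). Neither treatment had overlapping regions for Crabp2, and their order was opposite.

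The collagen-binding proteoglycan Fmod differed by 0.84 ± 0.21 in irradiated mice and by -0.67 ± 0.20 in control mice (adjusted p = 0.0219 and 0.0337). Aldh1a2, which makes retinoic acid, differed by 1.28 ± 0.17 in irradiated mice and by -0.07 ± 0.19 in control mice (adjusted p = 0.00184 and 0.819). The GABA transporter Slc6a13 differed by 1.02 ± 0.13 and -0.61 ± 0.25 (adjusted p = 0.00157 and 0.0904). Some members were higher in hippocampus under both treatments. Dcn, the proteoglycan decorin, was higher by 2.95 ± 0.12 in irradiated mice and 2.29 ± 0.10 in control mice. Lum was higher by 1.03 ± 0.11 in irradiated mice and 0.81 ± 0.23 in control mice (adjusted p = 0.000732 and 0.0229). Igfbp2, which the choroid plexus also makes, stood at 84.4, 25.6 and 108 FPKM in hippocampus of irradiated mice, so it was low in the mouse with low choroid plexus genes, and it was higher in both treatments (1.29 and 1.76). In irradiated mice its difference was 1.78 without mouse 2, and it was not called without mouse 1, without a filter on low values or with robust moderation (adjusted p = 0.0649, 0.0537 and 0.153).

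The meningeal result varied with the mouse left out. In irradiated mice 10 genes were called higher without mouse 1, 17 without mouse 2 and 13 without mouse 3, and 10 were called without a filter on low values. In control mice 10 were called lower without control mouse 3 and 1 without control mouse 1, when the median was 0.02. With any of the 6 mice left out, the change kept 12 to 15 of 17 genes at an unadjusted p under 0.05 and a median of 0.72 to 1.11. All 19 genes of the list summed to 1307, 1000 and 1423 FPKM in hippocampus of irradiated mice and to 337, 712 and 625 FPKM in their prefrontal cortex, with Ptgds as most of each sum. The sums of control mice were 499, 651 and 1072 FPKM in hippocampus and 1014, 863 and 885 FPKM in prefrontal cortex, so they spread more between control hippocampus libraries than between irradiated ones. Ptgds was not called with robust moderation (adjusted p = 0.134), and Ptgds and Fmod were not called without a filter on low values. The amount of meninges left on each dissected piece was not measured, and its part in these differences was not tested.

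**Figure D4:**
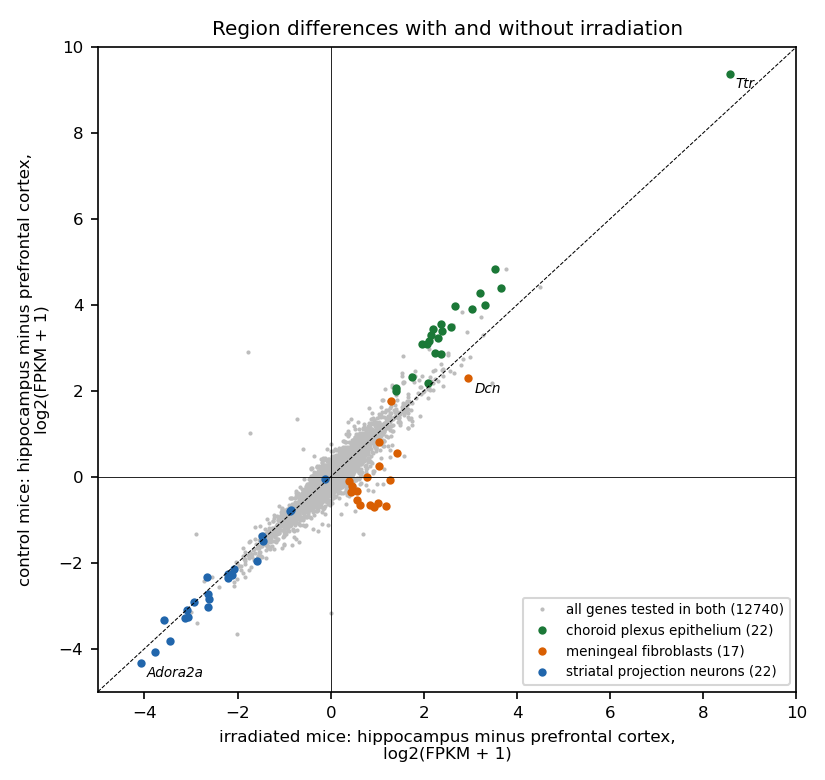
Hippocampus minus prefrontal cortex on the log2(FPKM + 1) scale in irradiated mice (horizontal) and control mice (vertical) for the 12740 genes tested in both, with equal values on the dashed line. Striatal genes (blue) lie along the line, choroid plexus genes (green) lie above it, and most meningeal fibroblast genes (orange) lie to the right of 0 in irradiated mice and at or below 0 in control mice.

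**Figure D5:**
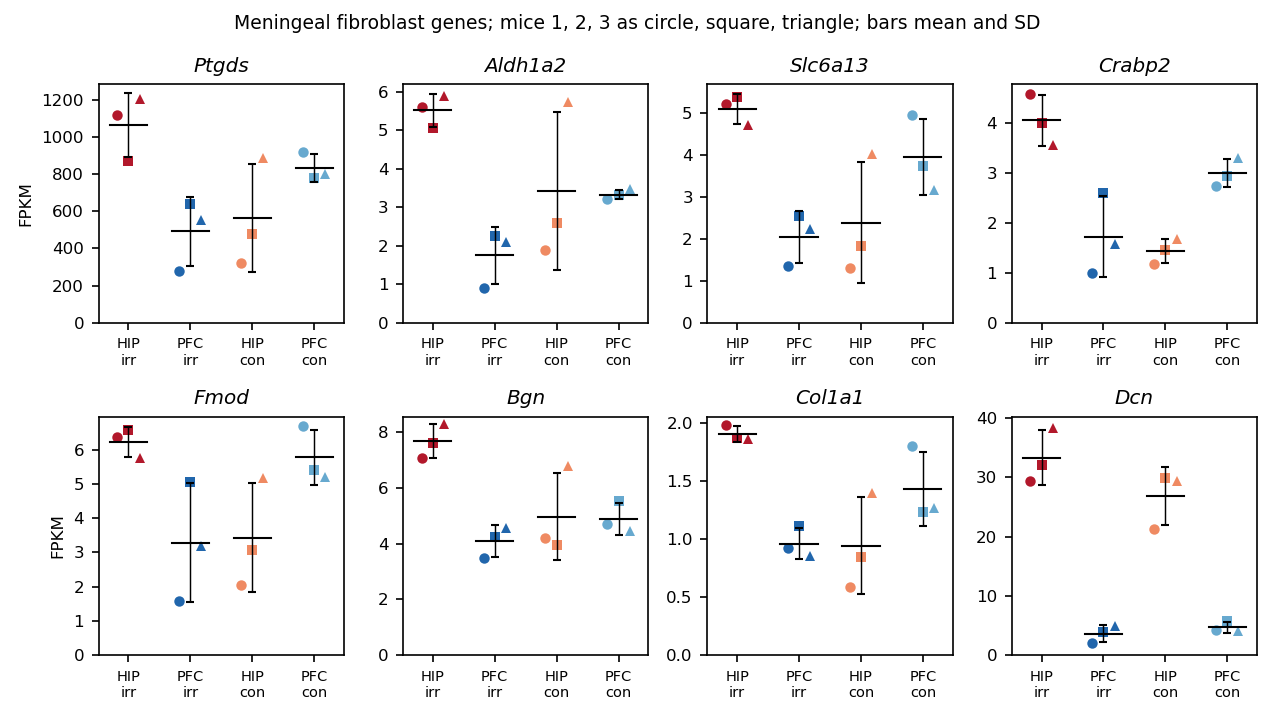
FPKM of 8 meningeal fibroblast genes in each library, from left to right hippocampus (HIP) and prefrontal cortex (PFC) of irradiated (irr) and of control (con) mice, with the mean as a line and the SD as a bar (n = 3). In irradiated mice all hippocampus points lie above all prefrontal cortex points for the 8 genes, while in control mice the regions overlap for Ptgds and lie in the opposite order for Crabp2.

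Neurotransmitter receptors differed by subunit rather than as families. Over all genes tested, 17.6% were higher in hippocampus and 18.4% lower. Of 17 ionotropic glutamate receptor subunits, 4 were higher in hippocampus and 6 lower, and of 7 metabotropic receptors 2 were higher and 3 lower, with 1 higher when any of the 3 mice was left out. Gria1, a subunit of AMPA receptors, stood at 171, 193 and 189 FPKM in hippocampus, against 79.7, 78.6 and 89.0 FPKM in prefrontal cortex (1.15 ± 0.06, adjusted p = 4.12e-05). Gria4 and the kainate receptor subunit Grik3 were lower by -0.59 ± 0.05 and -1.16 ± 0.07 (adjusted p = 0.000246 and 8.08e-05), while Grik4, another kainate subunit, was higher by 0.91 ± 0.07 (adjusted p = 0.000274). Of 14 GABA receptor subunits, 4 were higher and 7 lower, with a median of -0.27. Gabra5, the subunit of extrasynaptic receptors common in CA1, stood at 74.7, 79.7 and 76.0 FPKM in hippocampus, against 23.9, 24.4 and 23.0 FPKM in prefrontal cortex (1.65 ± 0.04, adjusted p = 6.4e-06). Gabrd, which makes tonic receptors, ran the other way, at 9.89, 11.2 and 11.6 FPKM in hippocampus and 36.9, 41.0 and 39.7 FPKM in prefrontal cortex (-1.76 ± 0.05, adjusted p = 8.08e-06).

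Of 11 serotonin receptors, 6 were higher and 4 lower (54.5% and 36.4%, against 17.6% and 18.4% of all genes tested). Htr5b stood at 3.52, 2.43 and 2.54 FPKM in hippocampus, against 0.415, 0.116 and 0.258 FPKM in prefrontal cortex (1.59 ± 0.11, adjusted p = 0.000126). Htr2a, the receptor that classical psychedelics act on, stood at 3.41, 4.02 and 3.98 FPKM in hippocampus, against 9.51, 14.4 and 12.0 FPKM in prefrontal cortex (-1.42 ± 0.09, adjusted p = 9.01e-05). Of 13 receptors for dopamine, noradrenaline and acetylcholine, 9 were lower in hippocampus and 2 higher, with a median of -0.40. The noradrenaline receptors split by subtype, with Adra1b lower by -2.13 ± 0.08 and Adra1d higher by 0.84 ± 0.05 (adjusted p = 2.14e-05 and 9.01e-05).

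Neuropeptide precursors were mostly lower in hippocampus, with 10 lower and 5 higher of 19 and a median of -0.82. Over all genes tested, 18.4% were lower and 17.6% higher. Several of the lowest, Penk, Pdyn and Tac1, also belong to the striatal list. Npy, neuropeptide Y of interneurons, stood at 73.7, 73.3 and 64.2 FPKM in hippocampus, against 159, 130 and 133 FPKM in prefrontal cortex (-0.98 ± 0.06, adjusted p = 0.00011). Nmb, neuromedin B, was higher by 1.72 ± 0.05 (adjusted p = 9.96e-06). Without mouse 3 only 3 precursors were called higher and the median was -0.55. Of 22 genes of inhibitory interneurons, 5 were higher and 8 lower (22.7% and 36.4%), with a median of -0.13. Calb2, calretinin, stood at 30.4, 21.7 and 38.0 FPKM in hippocampus, against 8.57, 5.71 and 12.9 FPKM in prefrontal cortex (1.65 ± 0.07, adjusted p = 2.31e-05), and Vip was lower by -1.03 ± 0.07 (adjusted p = 0.00012). Of 46 potassium and HCN channel genes, 23 were lower and 7 higher (50% and 15.2%), with a median of -0.22. Kcnh4 had the largest of these differences, at 0.495, 0.923 and 0.482 FPKM in hippocampus, against 4.76, 6.33 and 4.18 FPKM in prefrontal cortex (-1.89 ± 0.09, adjusted p = 4.02e-05).

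Genes of wiring and regional identity went both ways. Over all genes tested, 17.6% were higher in hippocampus and 18.4% lower. Of 19 Eph receptors and ephrins, which guide axons, 9 were higher and 6 lower: Epha6 was higher by 1.49 ± 0.09 and Ephb6 lower by -1.13 ± 0.06 (adjusted p = 9.78e-05 and 5.87e-05). Of 16 classical cadherins, which hold cells of a kind together, 6 were higher and 7 lower, with Cdh22 lower by -1.22 ± 0.06 (adjusted p = 5.14e-05). Of 44 transcription factors of forebrain patterning, 19 were higher and 16 lower. Meis2, a homeobox factor of the striatum among other tissues, was lower by -1.54 ± 0.06 (adjusted p = 2.36e-05), and its regions did not overlap. Of 10 genes of neural stem cells and young neurons, 4 were higher and 3 lower. Neurod1, which drives granule neuron differentiation, stood at 8.43, 9.28 and 10.5 FPKM in hippocampus, against 3.96, 4.75 and 3.52 FPKM in prefrontal cortex (1.04 ± 0.11, adjusted p = 0.000772).

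Genes of growth factors and of the stress hormone response went both ways. Of 24 neurotrophins, growth factors and receptors, 9 were higher, 3 lower and 12 not called, with a median of 0.09, against 17.6% higher and 18.4% lower over all genes tested. Bdnf, the brain-derived neurotrophic factor, stood at 10.3, 10.5 and 9.36 FPKM in hippocampus, against 6.19, 5.24 and 5.83 FPKM in prefrontal cortex (0.71 ± 0.08, adjusted p = 0.00085). Ntf3, neurotrophin 3, was higher by 1.60 ± 0.15 and the receptor Fgfr1 by 1.14 ± 0.05 (adjusted p = 0.000449 and 2.97e-05). Igf2, which the choroid plexus and meninges secrete, stood at 55.9, 23.1 and 65.3 FPKM in hippocampus, lowest in mouse 2, against 7.28, 12.3 and 9.96 FPKM in prefrontal cortex (2.08 ± 0.35, adjusted p = 0.00477). Its difference was 2.69 without mouse 2 (adjusted p = 5.08e-08), and it was not called with robust moderation (adjusted p = 0.111). Of 16 genes of glucocorticoid receptors and response, 8 were higher and 4 lower, with medians of 0.33 in irradiated mice and 0.36 in control mice. Nr3c2, the mineralocorticoid receptor, stood at 33.9, 43.0 and 38.7 FPKM in hippocampus, against 8.67, 10.8 and 10.8 FPKM in prefrontal cortex (1.83 ± 0.05, adjusted p = 9.24e-06), and its difference in control mice was also 1.83. Hsd11b1, which regenerates active glucocorticoid, was higher by 1.60 ± 0.08, and the receptor chaperone Fkbp5 by 0.82 ± 0.06 (adjusted p = 3.92e-05 and 0.000178).

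Immediate early genes, which neurons switch on within minutes of activity, were mostly lower in hippocampus but not as a block. Of 19 genes, 14 were lower and 4 higher (73.7% and 21.1%, against 18.4% and 17.6% of all genes tested). The medians were -0.64 in irradiated mice and -0.61 in control mice. Fos stood at 7.05, 6.90 and 4.99 FPKM in hippocampus, against 16.5, 12.7 and 13.3 FPKM in prefrontal cortex (-1.06 ± 0.09, adjusted p = 0.000405). Egr1 stood at 53.1, 48.4 and 40.3 FPKM in hippocampus, against 106, 94.4 and 85.4 FPKM in prefrontal cortex (-1.0 ± 0.04, adjusted p = 3.1e-05). The nuclear receptor Nr4a3 was on the other side, at 22.8, 20.8 and 20.2 FPKM in hippocampus, against 9.92, 7.49 and 8.13 FPKM in prefrontal cortex (1.23 ± 0.06, adjusted p = 5.25e-05). Jun was higher too, by 1.17 ± 0.08 (adjusted p = 0.000119), with Fosl2 and Nr4a2 higher by 0.59 and 0.61.

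The factor CREB is known to bind the cAMP response element, whose core is TGACG, in promoters of many of these genes. Of 15 immediate early genes with a promoter in the RefSeq table, 11 held TGACG on either strand (73.3%), against 3153 of 9797 promoters of all genes tested (32.2%). Promoters with the motif lay on both sides of the region difference: Fos (chr12:85473640-85473939, plus strand) was lower in hippocampus and held 2 matches, and Nr4a3 (chr4:48045055-48045354, plus strand) was higher and held 4. Both are shown with the matches in capitals, CGTCA being a match on the opposite strand.
Fos: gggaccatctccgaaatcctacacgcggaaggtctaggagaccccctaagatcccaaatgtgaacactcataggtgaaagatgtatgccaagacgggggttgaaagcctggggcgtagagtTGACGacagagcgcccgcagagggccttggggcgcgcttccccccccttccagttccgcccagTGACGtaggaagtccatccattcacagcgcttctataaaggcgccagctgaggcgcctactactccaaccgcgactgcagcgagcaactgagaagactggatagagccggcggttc
Nr4a3: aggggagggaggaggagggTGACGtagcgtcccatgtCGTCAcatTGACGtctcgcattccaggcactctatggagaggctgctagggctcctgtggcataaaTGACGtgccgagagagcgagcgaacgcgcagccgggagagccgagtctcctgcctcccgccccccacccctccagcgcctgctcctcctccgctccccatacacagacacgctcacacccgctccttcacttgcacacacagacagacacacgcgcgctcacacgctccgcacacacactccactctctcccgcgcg

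Genes of the damage and interferon responses were called about as often as all genes tested, of which 35.9% were called. Of 19 genes of the p53 and damage response, 2 were higher and 4 lower (31.6% called), with a median of 0.03. Only 1 was higher without mouse 2, when the median was -0.03, and 1 without mouse 3, without a filter on low values or when the pairing by mouse was ignored. Cdkn1a, the cell cycle inhibitor p21, stood at 3.41, 3.80 and 5.67 FPKM in hippocampus, against 9.61, 7.83 and 10.2 FPKM in prefrontal cortex (-0.97 ± 0.11, adjusted p = 0.000951), and its difference in control mice was -1.07. Of 22 interferon and antigen presentation genes, 6 were higher and 0 lower (27.3% called), with a median of 0.23, and without mouse 3 the median was -0.01, while 3 were called without mouse 1. H2-Aa, a chain of MHC class II, stood at 2.22, 2.74 and 2.61 FPKM in hippocampus of irradiated mice, against 0.692, 1.80 and 0.901 FPKM in prefrontal cortex (0.76 ± 0.13, adjusted p = 0.00577), and differed by -0.05 in control mice (adjusted p = 0.74). The change of its difference with irradiation, 0.81 ± 0.17, did not pass the test (limma, adjusted p = 0.608). Of 77 cytosolic ribosomal proteins, 25 were higher and 0 lower (32.5% called), with a median of 0.15. That count was 2 when the pairing by mouse was ignored, 5 without mouse 3, 16 without mouse 2 and 13 without a filter on low values, and reads from the many ribosomal pseudogenes may be split in ways that the tables do not show.

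The change of the region difference with irradiation was tested over all 12 libraries, using the same fit. Of 12894 genes, 0 were called by limma (0.0%), and 681 (5.28%) reached an unadjusted p under 0.05. Crabp2 had the smallest p among named genes with a larger difference in irradiated mice (change 1.64 ± 0.23, adjusted p = 0.281), followed by the actin-binding calponin Cnn2 (0.80 ± 0.13), the lipocalin Apod (0.48 ± 0.08) and the homeobox factor Pbx4 (0.61 ± 0.11), the last 3 each with an adjusted p of 0.503. In the other direction stood Dynlrb2 (change -0.90 ± 0.12, adjusted p = 0.281), the calcium release channel partner Fkbp1b (-0.41 ± 0.08, adjusted p = 0.503), the mitochondrial ribosomal protein Mrps18b (-0.37 ± 0.08, adjusted p = 0.608), the glutathione transferase Gsta4 (-0.32 ± 0.07, adjusted p = 0.608) and the glycosyltransferase Galnt9 (-0.38 ± 0.09, adjusted p = 0.638). None of these 9 genes passed the test. The count of calls was 2 without control mouse 1, 1 without control mouse 3, 1 without irradiated mouse 1 and 0 without any other mouse. Dynlrb2 stood at 8.08, 5.44 and 8.40 FPKM in hippocampus of irradiated mice, below its 12.4, 11.8 and 11.2 FPKM in hippocampus of control mice, and the regions did not overlap under either treatment.

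Genes named for their part in vascular and inflammatory responses gave mixed results between regions of irradiated mice. Ctgf, a matricellular protein, stood at 9.82, 7.48 and 7.84 FPKM in hippocampus, against 12.9, 14.5 and 14.4 FPKM in prefrontal cortex (-0.68 ± 0.10, adjusted p = 0.00341), and differed by -1.52 ± 0.10 in control mice. The change of its difference with irradiation, 0.84 ± 0.16, did not pass the test (limma, adjusted p = 0.503). Vegfa, the main endothelial growth factor, stood at 19.9, 23.3 and 20.9 FPKM in hippocampus and 21.9, 24.0 and 21.8 FPKM in prefrontal cortex, a difference of -0.08 ± 0.05 that did not pass the test (adjusted p = 0.258). Lcn2, an iron-siderophore carrier of inflammation, stood at 1.09, 7.10 and 2.73 FPKM in hippocampus and 1.15, 4.23 and 1.20 FPKM in prefrontal cortex, highest in mouse 2 in both regions (0.45 ± 0.16, adjusted p = 0.0743). The leucine-rich glycoprotein Lrg1 differed by -0.02 ± 0.13 (adjusted p = 0.938), and the ceramidase Acer2 by -0.25 ± 0.09 (adjusted p = 0.0644). Without mouse 1 the difference of Lcn2 passed the test at 0.70 (adjusted p = 0.00877), and without mouse 2 that of Acer2 did at -0.32 (adjusted p = 0.0483), while that of Lrg1 turned to 0.15. Spp1, osteopontin, chosen after its values were seen, stood at 9.26, 6.10 and 9.96 FPKM in hippocampus, against 2.99, 3.45 and 3.28 FPKM in prefrontal cortex (1.13 ± 0.14, adjusted p = 0.00159), and differed by -0.16 ± 0.16 in control mice (adjusted p = 0.495). Its change, 1.29 ± 0.26, did not pass either (limma, adjusted p = 0.608).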

How the data were processed

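Per the labels' protocols, RNA was isolated with Trizol and a NEBNext Ultra II Directional kit, which marks the strand, was used for libraries. The submitters' processing notes name TopHat and the build mm10, with no version. All libraries carry 1 batch label. The sources used here do not name the counting tool, the annotation or whether counting used the strand. The authors deposited a table of 23183 gene symbols with 1 value each for every library, without a unit. These deposited values were taken as FPKM, because they are not whole and values multiplied by transcript length in kilobases summed to 1.196 M to 1.238 M (mega) in the 6 libraries compared. FPKM are relative to the library's total, so an abundant tissue moves all other genes. Of the symbols, 22110 matched 1 gene of GENCODE M21, and 4134 were listed at 0 in all 6 irradiated libraries. Depth was estimated from the steps between low values of 1685 genes with a single transcript of at least 2000 bases.

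The region difference was fitted to log2(FPKM + 1) with limma 3.58.1 (R 4.3.3, trended variance), with the mouse as a block, over genes averaging 1 FPKM or more, with Benjamini-Hochberg adjustment over all genes tested and a threshold of 0.05. Control mice were fitted alike, and the change with irradiation over all 12 libraries. No count test was run, since the tables hold no counts. The titles give both regions of an animal its number. Between the 2 regions, deviations from group means had correlations in irradiated mice 1, 2 and 3 of 0.174, 0.256 and 0.3, and in control mice of 0.29, -0.006 and 0.054 (over 12894 genes). Unmatched pairs of irradiated mice all had negative correlations. Deviations from a group mean cancel over its mice, so these negative values follow in part from the positive matched ones. They are no separate support for the pairing. Control hippocampus 3 instead had 0.171 with prefrontal cortex 2, and control hippocampus 2 had 0.058 with prefrontal cortex 3. These correlations thus do not bear out the numbering of control mice 2 and 3, whose pairing rests on the titles. On simulated data for the region difference in irradiated mice (12878 genes), the fit recovered 78 of 100 genes changed by 1 on the log2 scale and 93 of 100 changed by 2, and called 5 unchanged genes. The simulation changed far fewer genes than were called in the data, shuffled spreads between genes and assumed a mouse effect. Its counts thus do not give the recovery or the false calls of the real comparison.

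Gene lists and the rule for named genes were chosen with earlier results of these data known. The rule takes the 12 largest called differences per direction among genes averaging 10 FPKM or more with the same sign in 3 mice, up to 4 list members of smallest p, up to 8 genes per direction for the change, filled to 5 where none passed, and 11 single genes. A few genes chosen this way are left out of the text. Fmod, Aldh1a2, Ptgds and Spp1 were added after their values were seen. Exons of 15 of the 158 named genes share at least 10% of their bases with another annotated gene. Among them Kcnj13, Mt2, Homer3, Mrps18b and Slc32a1 share them with a gene on the opposite strand, so their values are less certain if counting ignored the strand. Igf2, Trf, Nmb and Spp1 share them with a gene on the same strand, so their values are less certain with either way of counting. Alternatives were other pseudocounts (0.1 and 0.5), no filter or a minimum of 5 FPKM, equal library totals, quantile normalization, robust moderation, a single fit over all libraries, no block, and each mouse left out. Checks of the meningeal, choroid plexus and vessel lists in control mice and for the change were chosen after the data were seen. Promoters are from RefSeq (GRCm38.p6).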

Additional observations from a re-analysis of the deposited data

Results flagged for a closer look

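In 6 of the genes named in the report the 3 irradiated mice all had a region difference of one sign and the 3 control mice all had the opposite sign. The difference between the treatments was tested as the change of the region difference over all 12 libraries (limma), and none of the 6 passed after adjustment. Crabp2, Pbx4, Fkbp1b and Mrps18b were named for a small p of this same change, and Fmod after its values were seen. Their opposite signs thus follow in part from how they were chosen and are no separate support for a change. The share of all genes with such a split is not given here. Crabp2 differed between hippocampus and prefrontal cortex by 0.92 on the log2 scale in irradiated mice and by -0.71 in control mice (change 1.64 ± 0.23, adjusted p = 0.281). Fmod differed by 0.84 in irradiated mice and -0.67 in control mice (change 1.51 ± 0.36, adjusted p = 0.664). Vtn differed by 0.26 and -0.39 in that order of treatments (change 0.65 ± 0.14, adjusted p = 0.608), and Pbx4 by 0.23 and -0.38 (change 0.61 ± 0.11, adjusted p = 0.503). With the opposite order, Fkbp1b differed by -0.13 in irradiated mice and 0.28 in control mice (change -0.41 ± 0.08, adjusted p = 0.503), and Mrps18b by -0.27 and 0.10 (change -0.37 ± 0.08, adjusted p = 0.608).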

How the results depend on the processing

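The count of genes called in irradiated mice stayed within 1.5 times the 4629 reported under every setting run: from 3714 with a minimum mean of 5 FPKM to 4675 with equal library totals, and 3096 to 4600 with a mouse left out. With a mouse left out, genes higher in hippocampus numbered 1495 to 2281 in irradiated mice and 1483 to 2286 in control mice, and genes whose difference changed with irradiation 0 to 2, all of them small nucleolar RNAs or Syne1. With the minimum of 5 FPKM, 298 genes had a large difference, against 493, because fewer genes were tested. The titles pair the libraries by mouse; with that pairing left out of the fit (no replicate block), 3758 genes were called in irradiated mice, 1786 higher and 1972 lower, 3922 in control mice and 0 for the change, and 13 of 158 named genes lost their call. No named gene changed sign in that fit. Among named genes the sign turned for Lrg1 alone, whose difference ran from -0.11 to 0.15 with a mouse left out, 0.15 being the value without mouse 2, and the cause was not tested. Of 24 lists with a median of at least 0.1, 23 or 24 kept its sign under each setting. Without a filter on low values, fewer genes were called higher for neuropeptide precursors (3, against 5) and endothelium (2, against 4), beside the lists given in the report. Genes near 1 FPKM rest on few fragments, and their differences are the least precise.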
